A study of Mus musculus with 8 samples.

Results

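Transcripts of 8 genes known for the gas-exchanging part of the lung were followed in RNA-sequencing libraries of mouse hearts. The genes are Sftpc, Sftpb, Sftpa1, Sftpd, Abca3, Lamp3 and Napsa, which are known from surfactant-producing alveolar type 2 cells, and Ager, known from the flat alveolar type 1 cells. They were taken by name from the table of 25929 genes, and each of the 8 names matched 1 Ensembl identifier. There were 4 groups with 2 libraries in each. Wild-type mice, labelled as strain C57BL/6, were sham-operated (WT-Sham) or received a transverse aortic constriction (WT-TAC), a suture around the aorta that makes the heart pump against pressure. Littermates carrying the fat-1 transgene of Caenorhabditis elegans, labelled as strain Fat-1, were treated in the same 2 ways (Fat1-Sham and Fat1-TAC). The transgene encodes an enzyme that turns n-6 into n-3 polyunsaturated fatty acids. The promoter that drives it is not given in the sources used here, and its transcript was not analysed here. The mice were 3 months old at surgery, and in all 4 groups, sham included, the chest was opened and the animals were intubated and ventilated. The labels give ventricular tissue as the source, whereas the methods give whole hearts, and the labels describe the libraries of a group as independent samples. Libraries are named below by group and replicate, so that WT-TAC1 is the first WT-TAC library.

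Pulmonary surfactant is the film of phospholipid and protein that keeps alveoli from collapsing. Type 2 cells pack its lipids, with the hydrophobic proteins SP-B and SP-C, into lamellar bodies and secrete them, while the collectins SP-A and SP-D bind microbes and are also made by club cells of the airway. SP-C (Sftpc) is the member most restricted to type 2 cells, whereas several of the others have been described outside the alveolus. Among the members, Sftpc is therefore the closest guide for telling alveolar lung from airway, whose club cells are known for Scgb1a1.

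The labelled tissue was checked first. All 8 cardiomyocyte genes on a marker list (among them Myh6, Tnnt2 and Myl2) were above the detection floor of 3 fragments in every library, and their FPKM (fragments scaled to transcript length and library depth) summed to between 39170 and 48478 in 7 libraries and to 21639 in WT-TAC1. WT-TAC1 stood apart in a second way: the 7 thymocyte genes measured, Rag1 and Dntt among them, summed to 1269 FPKM there and to between 0.582 and 2.03 FPKM in the others. Libraries held 14163994 to 21218331 fragments. At that depth 3 fragments correspond to about 0.176 to 0.263 FPKM for Sftpc.

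The genes lie on 5 chromosomes (GENCODE M21 on GRCm38, the build in the submitters' notes). Sftpc is at chr14:70520949-70524081 on the minus strand, and the neighbouring collectin genes are Sftpa1 at chr14:41131782-41136452 (plus) and Sftpd at chr14:41172214-41185149 (minus), with 35.8 kilobases between their ends. Sftpb is at chr6:72304610-72314371 (plus), Lamp3 at chr16:19653378-19706375 (minus), Abca3 at chr17:24351950-24410201 (plus), Ager at chr17:34597862-34600936 (plus) and Napsa at chr7:44572380-44586862 (plus). Abca3 overlaps the minus-strand genes Gm25618 and D330041H03Rik, and Napsa overlaps the antisense gene Gm15396. Whether strand was used in counting is not given in the sources used here, so reads of these overlapping genes cannot be told apart. The other 6 members overlap no annotated gene.

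The promoters of Sftpb and Sftpa1 are shown because these genes encode 2 surfactant proteins that parted in the hearts, Sftpa1 being read in 3 libraries and Sftpb, beyond the floor, in 1. Each sequence is RefSeq's on GRCm38.p6, written 5′ to 3′ on the plus strand and covering 244 bases that end 7 bases before the RefSeq start (chr6:72304360-72304603 for Sftpb, chr14:41131538-41131781 for Sftpa1). Capitals mark TCAAG, or CTTGA where it lies on the other strand, the core of sites known to be bound by NKX2-1, a transcription factor of lung epithelium.
Sftpb: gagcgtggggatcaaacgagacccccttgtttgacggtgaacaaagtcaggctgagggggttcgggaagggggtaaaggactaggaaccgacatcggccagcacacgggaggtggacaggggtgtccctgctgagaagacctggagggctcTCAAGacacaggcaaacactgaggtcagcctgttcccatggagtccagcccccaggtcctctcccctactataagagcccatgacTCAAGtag
Sftpa1: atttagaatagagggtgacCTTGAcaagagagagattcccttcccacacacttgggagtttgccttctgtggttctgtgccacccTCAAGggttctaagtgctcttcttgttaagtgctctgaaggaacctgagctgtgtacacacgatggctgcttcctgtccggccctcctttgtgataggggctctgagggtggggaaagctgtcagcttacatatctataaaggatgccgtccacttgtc
Each of these windows holds 2 matches. Of 32851 promoter windows of this length, 8.07% hold 2 or more and 35.3% hold at least 1, so a match describes letters and is not a site. The windows of Abca3, Ager and Lamp3 held 0 matches. The Nkx2-1 transcript itself was read with 33 fragments in WT-TAC1 (0.659 FPKM), 34 in WT-TAC2 (0.749 FPKM) and 7 in Fat1-Sham1 (0.156 FPKM), and was at 0 in the other 5 libraries.

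Sftpc gave the widest range. Given as replicate 1 and then replicate 2, its level was 0 and 0.117 FPKM for WT-Sham, 74.7 and 0.138 for WT-TAC, 29.9 and 0.127 for Fat1-Sham, and 0 and 0.0685 for Fat1-TAC. Thus 1 library of WT-TAC and 1 of Fat1-Sham were high, with 1191 and 428 fragments, and the other 6 held at most 2 fragments, under the floor. The mean was 37.4 ± 52.7 FPKM in WT-TAC and 15.0 ± 21.1 in Fat1-Sham (SD, n = 2), an SD larger than the mean in both groups. WT-TAC2, Fat1-Sham2 and WT-Sham2 each held 2 fragments, so these libraries did not differ in reads.

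Ager encodes the receptor for advanced glycation end products, a surface protein of type 1 cells. In the same order it was at 0.0476 and 0.159 FPKM for WT-Sham, 8.51 and 0.225 for WT-TAC, 2.05 and 0.104 for Fat1-Sham, and 0.361 and 0.483 for Fat1-TAC. The 2 libraries high in Sftpc were again the highest, and WT-TAC2, with 6 fragments, lay below both Fat1-TAC libraries. The WT-TAC mean was 4.37 ± 5.86 FPKM (SD, n = 2).

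Sftpb, whose product SP-B is needed to form lamellar bodies, was at 0.974 FPKM in WT-TAC1, from 25 fragments. It was at 0.0364 in WT-Sham2 and 0.0435 in Fat1-Sham1, from 1 fragment each, and at 0 in the other 5 libraries. In WT-TAC1, then, Sftpb was the only surfactant protein gene under 1 FPKM, and in Fat1-Sham1 it stayed under the floor beside 428 fragments of Sftpc.

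Lamp3, a lysosomal membrane protein of type 2 cell lamellar bodies that mature dendritic cells also make, stood at 0.649 FPKM in WT-TAC1 (43 fragments) and 0.236 in Fat1-Sham1 (14 fragments). Elsewhere it was at 0 and 0.0987 for WT-Sham, 0.0999 for WT-TAC2, 0.0306 for Fat1-Sham2, and 0.0320 and 0.0495 for Fat1-TAC, with at most 7 fragments. The same 2 libraries were the highest. Of 7 mature dendritic cell genes, Ccr7 was at 15.7 FPKM and Ccl22 at 16.5 FPKM in WT-TAC1 against 0.0569 and 0.0857 in Fat1-Sham1. The list summed to 107 FPKM in WT-TAC1, to 36.1 in Fat1-Sham1 and to between 27.7 and 53.7 in the others, and its part in the Lamp3 values was not tested.

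The collectin genes were distributed otherwise. Sftpa1, the gene of SP-A, was at 7.70 FPKM in WT-TAC1, 3.52 in WT-TAC2 and 3.82 in Fat1-Sham1, from 283, 117 and 126 fragments, and at 0 in both WT-Sham libraries, Fat1-Sham2 and both Fat1-TAC libraries. It was thus read in WT-TAC2, where Sftpc was not. The mean of 5.61 ± 2.96 FPKM in WT-TAC (SD, n = 2) was at least 58.9-fold higher than in WT-Sham and at least 63.8-fold higher than in Fat1-TAC, the bound being taken at 3 fragments per library.

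Sftpd, the gene of SP-D, was at 3.14 FPKM in WT-TAC1, 3.43 in WT-TAC2 and 0.620 in Fat1-Sham1, from 96, 95 and 17 fragments, and at 0 in the same 5 libraries as Sftpa1. It was the only member that was not highest in WT-TAC1. The WT-TAC libraries lay close together, at 3.28 ± 0.205 FPKM (SD, n = 2), above all 6 others, and at least 28.7-fold above WT-Sham and at least 31.1-fold above Fat1-TAC.

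Napsa, the gene of the aspartic protease napsin A that processes SP-B and SP-C, was read in all 8 libraries. Replicates 1 and 2 were at 0.306 and 0.307 FPKM for WT-Sham, 3.66 and 1.87 for WT-TAC, 0.854 and 0.333 for Fat1-Sham, and 0.348 and 1.14 for Fat1-TAC. Both WT-TAC libraries were above the other 6, and Fat1-TAC2, with 19 fragments and no Sftpa1 or Sftpd, came next.

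Abca3, the transporter that loads phospholipid into lamellar bodies, was the only member above 4 FPKM throughout. Replicates 1 and 2 were at 4.05 and 5.91 FPKM for WT-Sham, 11.1 and 7.83 for WT-TAC, 5.30 and 4.63 for Fat1-Sham, and 4.80 and 5.59 for Fat1-TAC. The WT-TAC libraries were again above the rest, by a ratio of means of 1.90 against WT-Sham and 1.83 against Fat1-TAC. Fat1-Sham1, high in Sftpc, did not stand out, and 231 to 888 fragments per library came from this gene.

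**Figure D1:**
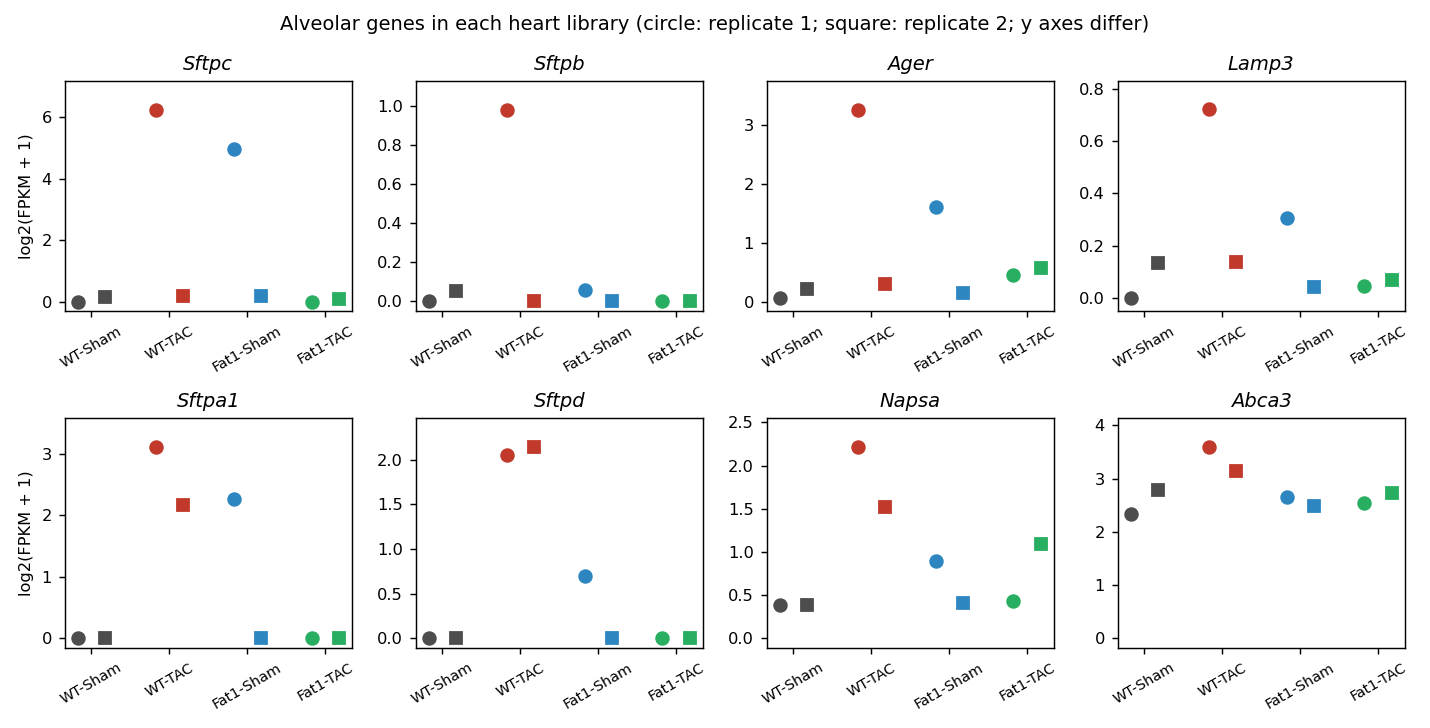
Level of each member, as log2(FPKM + 1) on the y axis, in the 4 groups on the x axis, with 1 point for each library (circle, replicate 1, and square, replicate 2) and a y axis of its own for each gene. In the upper row (Sftpc, Sftpb, Ager, Lamp3) WT-TAC1 is high and WT-TAC2 is near the WT-Sham libraries, whereas in the lower row (Sftpa1, Sftpd, Napsa, Abca3) both WT-TAC libraries are above WT-Sham.

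Of the members, 7 of 8 were highest in WT-TAC1. That count is to be read against the 51.7% of all 25929 genes that were highest in that library. For 3 of 8 members, Sftpd, Napsa and Abca3, both WT-TAC libraries lay above the other 6, which 33.3% of all genes did. What differed among members was the level in WT-TAC2 relative to WT-TAC1: 0.185% for Sftpc, 0% for Sftpb, 2.65% for Ager and 15.4% for Lamp3, but 45.6% for Sftpa1, 51.1% for Napsa, 70.4% for Abca3 and 109% for Sftpd. The median of 14303 genes was 79.7%, and 1.76% of them were under 10%. In Fat1-Sham1 the percentages of the WT-TAC1 level ran from 4.46% for Sftpb and 19.7% for Sftpd to 40.1% for Sftpc and 49.7% for Sftpa1.

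The make-up of the alveolar signal therefore changed between libraries. Of the members' summed FPKM, Sftpc gave 67.6% in WT-TAC1, 69.8% in Fat1-Sham1 and only 0.809% in WT-TAC2. There Abca3 gave 45.8%, Sftpa1 20.5% and Sftpd 20.0%. The sum itself was highest in WT-TAC1, at 110 FPKM, followed by 42.9 for Fat1-Sham1 and 17.1 for WT-TAC2. The other 5 libraries lay between 4.41 and 7.32 FPKM, of which Abca3 gave 76.3% to 92.0%. In bulk tissue, fewer cells of a type and less RNA per cell cannot be told apart.

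Other genes of type 2 cells, from a list of 14 of which 13 were measured, held a group that moved as Sftpc did. Slc34a2, the phosphate transporter of type 2 cells, was at 3.22 FPKM in WT-TAC1, 1.74 in Fat1-Sham1, 0.0751 in WT-TAC2 and 0 in the other 5. Cxcl15, the lung chemokine lungkine, was at 1.33, 1.64, 0.0524 and 0 FPKM in the same order, and Cldn18, a tight junction protein of the alveolus, at 1.26, 0.412, 0 and 0. All 3 were at or under the floor in WT-TAC2. Muc1, an apical mucin that airway cells make too, behaved as Sftpd did, with 3.62 FPKM in WT-TAC1, 5.29 in WT-TAC2 and at most 0.658 elsewhere. Cd74, Ctsh, Etv5 and Lpcat1 were above 5 FPKM in every heart, and the list summed to 101 to 139 FPKM in the 5 libraries other than WT-TAC1, WT-TAC2 and Fat1-Sham1. Its sum was 451 FPKM in WT-TAC1, 195 in WT-TAC2 and 134 in Fat1-Sham1, the last lying within that range. Most of the WT-TAC1 sum came from Cd74 alone, at 337 FPKM. The Cd74 level in WT-TAC2 was 32.0% of that, so these sums say little about the other genes of the list.

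Of 13 other type 1 genes measured, several were abundant in every heart, such as Cav1 (215 to 406 FPKM), Hopx (69.1 to 119 FPKM) and Clic5 (30.6 to 52.7 FPKM). These were abundant also in libraries in which Sftpc was under the floor. Rtkn2 was at 2.62 FPKM in WT-TAC1 and at most 0.0916 elsewhere, including Fat1-Sham1, where Ager was at 2.05 FPKM. The water channel gene Aqp5, known in type 1 cells and airway glands, was at 4.13 FPKM in WT-TAC1, 7.0 in WT-TAC2 and at most 0.753 in the others. Among genes that work with surfactant, the factor Foxa1 was at 1.48 and 2.38 FPKM for WT-TAC, at 0.0624 for Fat1-Sham1 and at 0 elsewhere.

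Airway genes gave a different order of the libraries. Scgb1a1, the secretoglobin of club cells, was at 707 FPKM in WT-TAC1, 1555 in WT-TAC2 and 33.1 in Fat1-Sham1, with 0 to 0.450 FPKM in the other 5. WT-TAC2 was thus the highest and Fat1-Sham1 far below. All 13 club and secretory genes above the floor in WT-TAC1 were higher in WT-TAC2, at a median of 234% of the WT-TAC1 level, and their median in Fat1-Sham1 was 3.04%. Of 14303 genes, 35.6% were higher in WT-TAC2, and the median in Fat1-Sham1 was 63.5%. For the 8 alveolar genes these medians were 30.5% and 30.2%. Against 100 FPKM of Scgb1a1 there were 10.6 FPKM of Sftpc in WT-TAC1, 0.00891 in WT-TAC2 and 90.5 in Fat1-Sham1, and the other 5 libraries held too few fragments of both genes for a ratio. The summed FPKM of the 8 members per 100 FPKM of the airway list was 5.56 in WT-TAC1, 0.353 in WT-TAC2 and 38.4 in Fat1-Sham1. In the other 5 libraries it was between 6.65 and 11.3, where it rested mostly on Abca3 against Cbr2 and Aldh1a1, genes that every heart expressed.

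**Figure D2:**
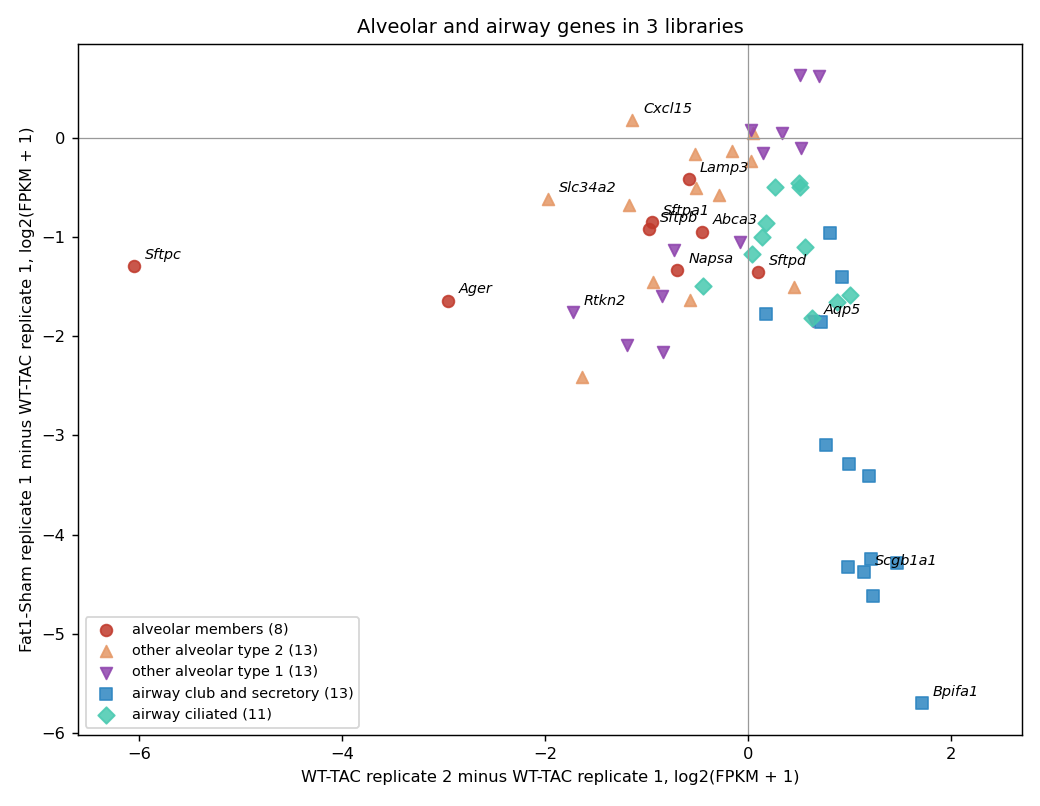
Each point is a gene above the floor in WT-TAC1, placed by its difference in log2(FPKM + 1) between WT-TAC2 and WT-TAC1 (x axis) and between Fat1-Sham1 and WT-TAC1 (y axis), with lists told apart by colour and shape and the number of genes in parentheses. Sftpc and Ager lie far to the left, while all 13 club and secretory genes lie to the right of 0 and Bpifa1 is the lowest.

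Likeness across the 8 libraries was measured as Pearson's r of log2(FPKM + 1) against the 14436 genes that passed a filter of 1 FPKM in at least 2 libraries and are no members. The points share libraries and depth, and WT-TAC1 held the highest value of many genes, so r is a description. The genes most like Sftpc were Slc34a2 (r = 0.997) and Cxcl15 (r = 0.976), followed by Gm29126 (r = 0.961), Mir8102 (r = 0.941) and Gm10184 (r = 0.941). Like Sftpc, Slc34a2 and Cxcl15 reached 1 FPKM only in WT-TAC1 and Fat1-Sham1. They passed the filter only through those 2 libraries, so a high r with Sftpc was largely set by the filter. The median r with Sftpc over all genes was 0.469. Those most like the mean of the 8 members were Nup43 (r = 0.976), Cnnm3 (r = 0.974), Tbc1d22a (r = 0.974), Gm37986 (r = 0.973) and Rpl35a-ps3 (r = 0.972), none of them from the lists.

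Sftpd was looked at in the same way after its values were seen. The genes most like it were Bpifa1 (r = 0.997), Scgb3a2 (r = 0.996), Ighv14-1 (r = 0.994), Scgb1a1 (r = 0.991) and Sec14l3 (r = 0.987), of which all but Ighv14-1 are on the club and secretory list. Over the 13 genes of that list r with Sftpd was 0.902 to 0.997 and r with Sftpc 0.211 to 0.587. Over all 14442 genes the median r with Sftpd was 0.634, the value exceeded by 1% of genes was 0.938, and 68.2% of genes had a higher r with Sftpd than with Sftpc. Among the members, Sftpc and Ager had r = 0.949 and Sftpc and Lamp3 r = 0.920, whereas Sftpc and Sftpd had r = 0.552 and Sftpa1 lay between, at 0.832 with Sftpc and 0.905 with Sftpd.

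**Figure D3:**
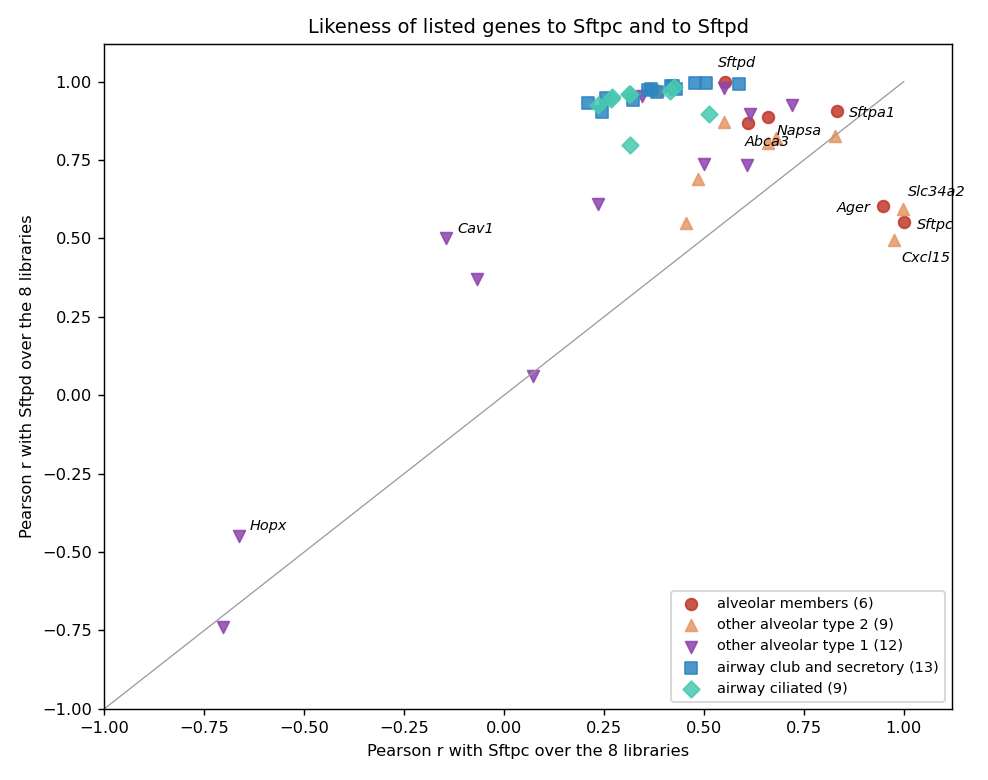
Pearson's r of each listed gene with Sftpc (x axis) and with Sftpd (y axis), over the 8 libraries, for listed genes that passed the filter; the line marks equal r. Slc34a2, Cxcl15 and Ager lie at the right beside Sftpc, below the line, and all club, secretory and ciliated genes lie above it, as do 68.2% of all genes that passed the filter.

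Pressure overload was then compared with sham in wild-type hearts. Of the members only Sftpd passed, with a log2 fold change of 2.10 ± 0.27 (SE) on the log2(FPKM + 1) scale and an adjusted p of 0.0351 by limma with Benjamini-Hochberg adjustment. It was higher in 2 of 2 WT-TAC libraries. The call was lost under 2 other scalings, a pseudocount of 0.1, a per-gene test and limma-voom (adjusted p 0.143 to 0.301), and without either WT-Sham library. Calls needed both an adjusted p below 0.1 and a change of more than 1.5-fold, which 0.935% of 14442 genes tested met. Sftpb and Lamp3 were not tested, since they never reached 1 FPKM in 2 libraries, and Sftpc, Sftpa1, Sftpd and Ager passed that filter only through libraries in which they were high. For 1 gene alone, permuting 2 libraries against 2 exactly gives no p below 0.33.

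The other 5 members tested had positive log2 fold changes that did not pass in limma with Benjamini-Hochberg adjustment. The values were 3.13 ± 2.05 for Sftpc (adjusted p = 0.295), 2.65 ± 0.68 for Sftpa1 (0.175), 1.63 ± 0.90 for Ager (0.233), 1.49 ± 0.35 for Napsa (0.159) and 0.81 ± 0.26 for Abca3 (0.175). Sftpc thus had the largest estimate and the largest error. Genes were also counted at an unadjusted limma p under 0.05 with a change of more than 1.5-fold. Then 4 members passed, Sftpa1, Sftpd, Napsa and Abca3, as did 23.8% of all genes. The median over the 6 members was 1.86, and the median over all genes was 0.39. Without WT-TAC2, when WT-TAC1 alone stood for its group, all 6 tested members were called, and without WT-TAC1 only Sftpd was.

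On the other lists, limma called 12 of 13 club and secretory genes upward in WT-TAC against WT-Sham, and 6 of 9 ciliated genes. Of all genes tested, 0.935% were called. All 6 of these ciliated genes reached 1 FPKM only in the WT-TAC libraries. So did Tff2, Bpifb1, Gabrp, Reg3g and Sec14l3 of the club list, and Muc1, Aqp5 and Foxa1, named next. For these genes the filter already required high WT-TAC values, so their calls are no independent test of a rise. Of 9 other type 2 genes tested 1 was called, Muc1, with a log2 fold change of 1.85 (adjusted p = 0.0501, limma with Benjamini-Hochberg adjustment). Of 12 other type 1 genes 1 was called, Aqp5, with 2.53 (adjusted p = 0.0301). Of 15 genes of the surfactant pathway 1 was called, Foxa1, with 1.53 (adjusted p = 0.0595). None of the genes on these lists was called lower, although some, such as Clic5 and Hopx, had negative estimates. Slc34a2, with 1.09 ± 0.68 and an adjusted p of 0.276, did not pass.

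In Fat1-TAC against WT-TAC, which shares the WT-TAC libraries with the comparison above, Sftpd fell by 2.10 on the log2 scale (SE 0.27, adjusted p = 0.0368, limma with Benjamini-Hochberg adjustment), where 1.43% of all genes were called. Sftpd had entered the test only through the WT-TAC libraries, and its call was lost under the same 5 settings (adjusted p 0.121 to 0.262) and without either WT-Sham or either Fat1-TAC library (0.103 to 0.285). The log2 fold changes of the other members were -3.17 ± 2.05 for Sftpc, -2.65 ± 0.68 for Sftpa1, -1.26 ± 0.90 for Ager, -1.11 ± 0.35 for Napsa and -0.74 ± 0.26 for Abca3, with adjusted p of 0.143 to 0.315. Of these, 3 (Sftpa1, Napsa and Abca3) passed an unadjusted limma p under 0.05 with a change of more than 1.5-fold. With Sftpd, 4 of 6 members did, against 25.2% of all genes. Sftpd, Sftpa1 and Sftpb were at 0 in both Fat1-TAC libraries. Without WT-TAC2 all 6 were called. The median over all genes was -0.40 here.

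Neither comparison with the Fat1-Sham group called a member. For Fat1-Sham against WT-Sham, 0 of 6 were called, where 0% of all genes were. At an unadjusted p under 0.05 with a change of more than 1.5-fold, 0 members passed, and 0.893% of genes did. Limma was the tool, and limma-voom called 0 as well. The Sftpc estimate was 2.48 ± 2.05 and came from Fat1-Sham1 alone. For Fat1-TAC against Fat1-Sham, 0 of 6 were called by limma (0.00692% of all genes were), and limma-voom again called 0. By unadjusted limma p with the same fold change, 0 passed (1.86% of genes did). Here Sftpc was at -2.51 ± 2.05 and Sftpa1 at -1.14 ± 0.68, while Abca3, at 0.05 ± 0.26, and Napsa, at 0.11 ± 0.35, were near 0.

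The interaction of genotype and surgery asked whether the response to constriction differed between genotypes. No member was called by limma (0 of 6, where 0.0692% of genes were). At an unadjusted p under 0.05 with a change of more than 1.5-fold, 3 members passed, Sftpa1, Sftpd and Napsa, as did 6.99% of genes. The interaction estimate was -5.65 ± 2.90 for Sftpc, -3.78 ± 0.96 for Sftpa1 and -2.45 ± 0.38 for Sftpd, with adjusted p of 0.495, 0.495 and 0.203. Limma-voom called 0 members, and without WT-TAC2 all 6 were called.

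**Figure D4:**
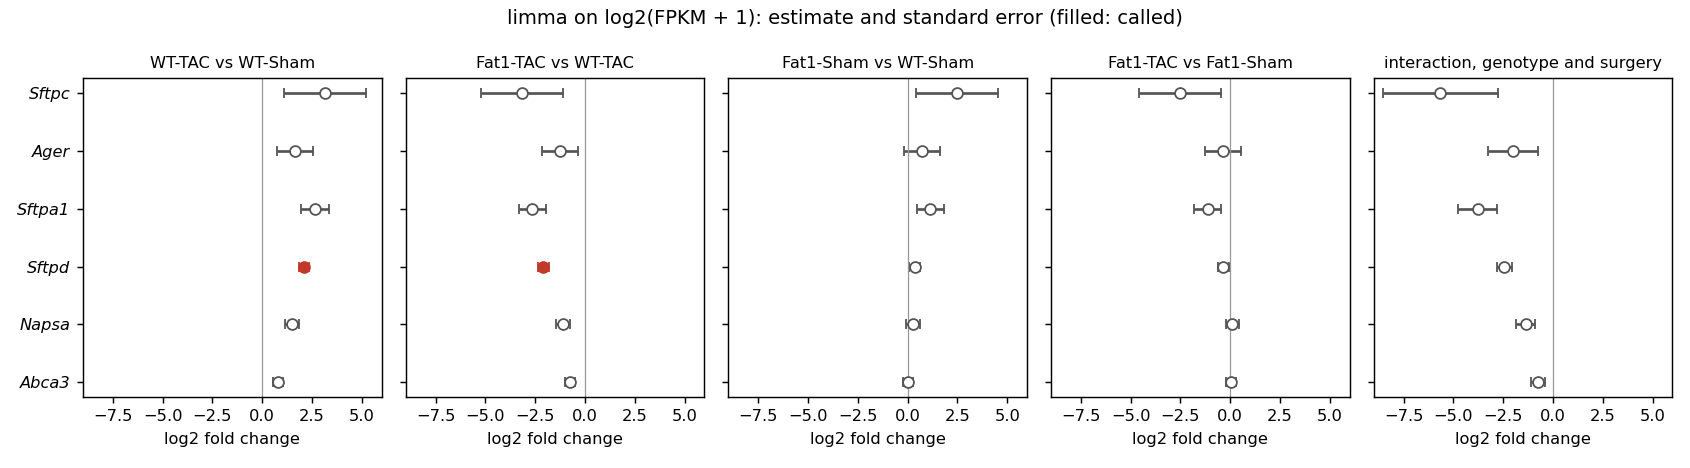
Log2 fold change (x axis, on the log2(FPKM + 1) scale) of the 6 tested members in each of the 5 comparisons, with bars for the limma standard error and filled points for called genes. Sftpd is filled in the WT-TAC comparisons, at 2.10 and -2.10, and the bars of Sftpc are the widest in each panel.

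Markers of other lung and immune cells moved with some of these values, and their part in the results was not tested. The 8 alveolar macrophage genes measured summed to 276 and 417 FPKM for WT-TAC, 284 for Fat1-Sham1 and 218 to 272 in the other 5, mostly from Fabp4, which every heart expressed. For the genes less common in heart, means of WT-TAC against WT-Sham were 2.82 against 0.0718 FPKM for Marco and 5.63 against 1.23 for Ear2. They were 1.56 against 0.226 for Atp6v0d2, 0.687 against 0.107 for Krt79 and 2.84 against 1.21 for Chil3. Ear2 and Chil3 were highest in WT-TAC1, at 9.33 and 5.11 FPKM. In WT-TAC2 they were at 1.94 and 0.564, below WT-Sham2 at 2.16 and 1.71. Marco was at 1.44 FPKM in Fat1-TAC2. Car4, which every heart expressed, was lower in WT-TAC, at 14.2 against 20.2 FPKM. Siglecf was at 0.128 FPKM or less in all libraries. None of the 5 genes tested was called by limma. The 7 lung endothelial genes were above the floor in every library and summed to 41.3 to 58.4 FPKM. The 11 general epithelial genes summed to 290 and 77.9 FPKM for WT-TAC, 5.27 for Fat1-Sham1 and 2.49 to 6.19 in the others. The low sums came mostly from Krt8 and Krt18, read in every heart, and Cdh1, at 0.220 FPKM in Fat1-Sham1 (11 fragments), was at most 0.0393 FPKM in the other 5.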

How the data were processed

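Heart RNA of mice had been sequenced in 8 libraries, with 2 in each of 4 groups, grouped by the labels. The authors deposited FPKM values per gene, and the submitters' processing notes name HISAT2 and the builds mm10 and GRCm38. The counting program and annotation are not given in the sources used here. The study's methods name whole hearts as the RNA source, and the labels name ventricular tissue. Fragments per gene were recovered from the FPKM values: for 100.0% of genes 1 length made all 8 values whole within 0.001 fragments. They served for depth, for the floor of 3 fragments per library and for limma-voom. The floor covers counting error only.

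On the log2(FPKM + 1) scale, limma (version 3.58.1, R 4.3.3) was fitted to all genes that reached 1 FPKM in 2 or more libraries, with 4 group means and a trended variance. In data simulated for WT-TAC against WT-Sham with 14093 genes, 184 of 194 genes changed 4-fold were called, beside 33 unchanged genes. Apart from depth, both libraries of a group were simulated around the same mean, with a dispersion of 0.034. WT-TAC1 and WT-TAC2 differed far more than that in genes such as Sftpc, so the simulation does not give the power in these data. The labels call the samples of a group independent, and p-values measure the spread between these libraries. All 8 members are named, with listed genes and the 5 genes most like Sftpc or the members' mean. The members and lists were chosen with earlier results of these data known. S100g, Pdpn, Pga5, Ear1 and Rag2 of the lists were not analysed here. Alternatives were scaling, filter, pseudocount, groups fitted, replicate block, per-gene test, limma-voom and leaving out each library.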

Additional observations from a re-analysis of the deposited data

Results flagged for a closer look

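The order of the Sftpc values after constriction was opposite in the 2 genotypes, mostly among libraries under the floor of 3 fragments: both WT-TAC libraries (74.7 and 0.138 FPKM) lay above both WT-Sham libraries (0 and 0.117 FPKM), and both Fat1-TAC libraries (0 and 0.0685 FPKM) lay below both Fat1-Sham libraries (29.9 and 0.127 FPKM). It is listed for that order of libraries alone, which is no test of the difference. The interaction in limma was -5.65 on the log2 scale with a Benjamini-Hochberg adjusted p of 0.495 and did not pass. Sftpc was below the floor in 6 of the 8 libraries, among which WT-TAC2, Fat1-Sham2 and WT-Sham2 held 2 fragments each.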

How the results depend on the processing

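In both WT-TAC comparisons the count of called members was 1, and it was 0 under median-of-ratios scaling, quantile normalization, a pseudocount of 0.1, the per-gene test and limma-voom on recovered fragments. It was 2 in WT-TAC against WT-Sham with only the groups compared. Leaving out each library in turn gave 0 to 6 called members in WT-TAC against WT-Sham, in Fat1-TAC against WT-TAC and for the interaction, the 6 coming without WT-TAC2. Sftpd lost its call without either WT-Sham library in both comparisons, and without either Fat1-TAC library in Fat1-TAC against WT-TAC. Its adjusted p over all alternatives was 0.00289 to 0.35 against WT-Sham and 0.00292 to 0.285 against Fat1-TAC. For the interaction the count was 1 with no filter. Limma-voom with no filter, chosen after seeing the data, called 1 member in both WT-TAC comparisons. Without WT-TAC1 the log2 fold change of Ager in Fat1-TAC against WT-TAC was 0.21 in place of -1.26, and without WT-TAC2 it was -2.74. Median-of-ratios scaling took the median of all genes from 0.39 to -0.01 in WT-TAC against WT-Sham. The cause of these changes was not tested.

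Over single members in those 2 comparisons, 184 of 216 alternative values kept their direction and side of the threshold, 16 lost a call, 15 gained one and 1 reversed. Same-numbered libraries of different groups had correlations of -0.135 to 0.024 in their deviations from the group means, so the numbers do not pair them, and with the replicate number as a block 1 member was called in both WT-TAC comparisons, while the calls over all genes fell to 52 in each.

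The alveolar FPKM per 100 airway FPKM of 5.56 in WT-TAC1, 0.353 in WT-TAC2 and 38.4 in Fat1-Sham1 depended on the genes summed. It was 1.80 in WT-TAC1 and 11.6 in Fat1-Sham1 without Sftpc, and 16.2 and 63.0 without Scgb1a1 and Bpifa1. Against the ciliated list it was 185, 22.5 and 172 in the order WT-TAC1, WT-TAC2 and Fat1-Sham1, so that WT-TAC1 was then the highest. That list rested mostly on Tppp3, which every heart expressed. Tppp3 gave 38.3 of 59.7 FPKM in WT-TAC1, 43.4 of 76.0 in WT-TAC2 and 20.7 of 25.0 in Fat1-Sham1. The Fat1-Sham1 sum lay within the 18.3 to 36.0 FPKM of the other 5 libraries. With a ratio chosen after seeing the data, Sftpc per 100 Scgb1a1 was 10.6 in WT-TAC1 and 90.5 in Fat1-Sham1. A ratio without Abca3, Cbr2 and Aldh1a1, chosen likewise, was 71.8 in Fat1-Sham1. That lay below Fat1-Sham2 (88.9), Fat1-TAC1 (79.7) and Fat1-TAC2 (162). In Fat1-Sham2 and both Fat1-TAC libraries no member left in that ratio held more than 19 fragments, so this order rests on few fragments. Depth limits the low members: 3 fragments was the floor, and Sftpb had 25 fragments at most.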
